A study of Homo sapiens with 9 samples.

Results

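The lysyl oxidase family was examined across CAL27 cells and 3 CRISPR-edited groups made from them. It comprised 5 genes, LOX, LOXL1, LOXL2, LOXL3 and LOXL4, found by gene symbol among the 78894 Ensembl identifiers of each deposited table. CAL27 is an established human line of tongue squamous carcinoma cells. The samples fall into a Control group and the knockout groups A2ko, A8ko and C9ko, all of CAL27 cells kept without treatment in DMEM with 10% FBS. They name neither the edited sequence of any knockout group nor whether the cells of a group are 1 clone or pooled, and they do not say what the Control cells received. The measurement was bulk sequencing of polyA RNA, given as TPM, a share of each library's transcripts after scaling for gene length. Because TPM is per length, levels can be compared between genes of a library. Between libraries, a TPM value also depends on what else each library holds.

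All values of the 2 A2ko files were the same, as were those of the 2 A8ko files, so each pair was counted as 1 library. There were therefore 7 distinct libraries: 3 Control, 1 A2ko, 1 A8ko and 2 C9ko. A2ko and A8ko are thus unreplicated, and neither is given a p-value. The distinct libraries held 15556 to 16716 genes at 1 TPM or more, and mitochondrial transcripts made up 17.9% to 26.9% of them. TPM keeps no depth, so the depth of the libraries is unknown and values carry no counting interval. The 8 squamous epithelial markers (KRT5, KRT14, TP63 and others) were all present, with a summed level of 15210 to 16400 TPM in Control, 6457 in A2ko, 7591 in A8ko and 9702 to 9901 in C9ko. KRT5, KRT14 and PKP1 were below every Control library in C9ko, KRT17 overlapped Control, and TP63, EPCAM, CDH1 and SFN were above it. In A2ko, KRT17 and CDH1 were above every Control library, and KRT5, KRT14, PKP1, TP63, EPCAM and SFN were below. In A8ko, EPCAM, CDH1 and SFN were above, and KRT5, KRT14, KRT17, TP63 and PKP1 were below.

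Lysyl oxidases are copper-dependent enzymes that leave the cell and oxidise lysine side chains in collagens and elastin, which lets the fibres form covalent crosslinks. LOX and LOXL1 are made with a propeptide that is cut off outside the cell by BMP1 and related proteases, whereas LOXL2, LOXL3 and LOXL4 carry scavenger receptor cysteine-rich domains instead. LOX is a known target of hypoxia signalling, and LOXL2 is widely studied in carcinomas for its links with matrix stiffening and SNAI1. The 5 genes were selected on TPM values of these same libraries in earlier results, so their levels and differences are given below as a description. Where they are counted among called genes, the count is likewise a description and supports nothing.

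LOXL4 varied most among the 5 genes. Its TPM was 6.16-fold higher in A2ko than the Control mean, 18.8-fold lower in A8ko and 5.06-fold lower in C9ko. LOXL1 stood on the same sides of Control at a much lower level. LOXL2 was higher in all 3 knockout groups, by 1.65-fold in A2ko, 2.21-fold in A8ko and 2.11-fold in C9ko, and LOXL3 was higher in them too. LOX was 1.98-fold higher in C9ko and stood close to Control in A2ko and A8ko. In bulk RNA, fewer cells expressing a gene and less of its RNA per cell cannot be told apart.

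**Figure D1:**
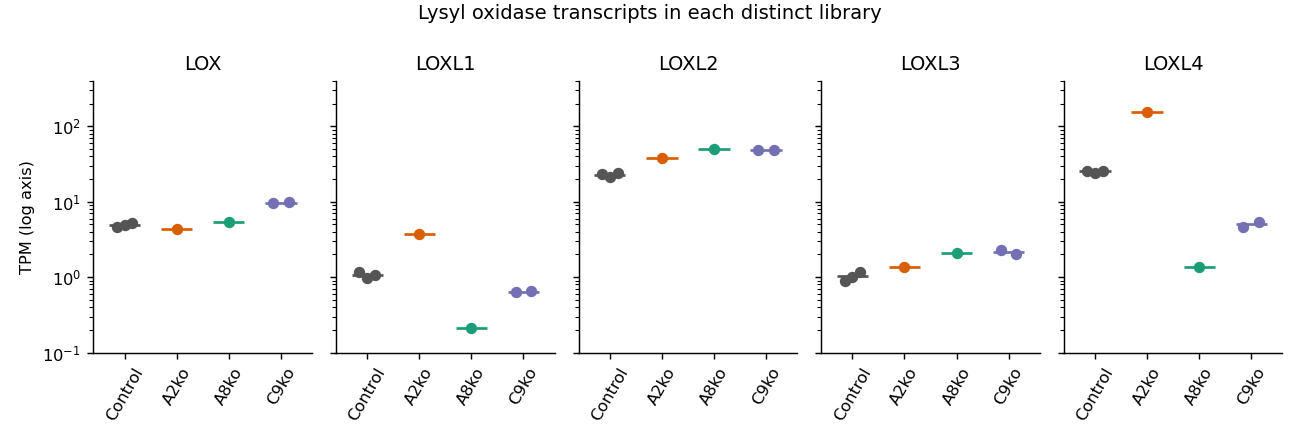
TPM of the 5 lysyl oxidase genes on a log axis, by group, with each distinct library as a point and the group mean as a line. LOXL4 spans 1.35 TPM in A8ko to 156.3 TPM in A2ko, while LOX stands apart from Control mainly in C9ko.

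The genes lie on 5 chromosomes. In GENCODE release 29 on GRCh38 (hg38), LOX is at chr5:122063195-122078360 on the minus strand (ENSG00000113083) and LOXL1 at chr15:73925989-73952137 on the plus strand (ENSG00000129038). LOXL3 is at chr2:74532414-74555690 (ENSG00000115318) and LOXL4 at chr10:98247690-98268250 (ENSG00000138131), both on the minus strand. Of the 5 genes, 4 had a RefSeq promoter window (GRCh38.p14), LOXL2 being the exception. The 250 bases before the start are shown for the gene raised mainly in C9ko, LOX, and for LOXL1 and LOXL4, which moved to the same sides of Control in each knockout. Each reads 5′ to 3′ on the gene's own strand, at chr5:122078260-122078509 (minus) for LOX, chr15:73926212-73926461 (plus) for LOXL1 and chr10:98268195-98268444 (minus) for LOXL4. Capitals mark ACGTG, the core of the hypoxia response element, on either strand (CACGT on the other).
LOX: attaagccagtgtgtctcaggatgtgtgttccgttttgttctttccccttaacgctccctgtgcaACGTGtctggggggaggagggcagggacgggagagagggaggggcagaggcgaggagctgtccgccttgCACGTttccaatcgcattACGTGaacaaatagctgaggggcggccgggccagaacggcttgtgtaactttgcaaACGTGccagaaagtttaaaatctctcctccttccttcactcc
LOXL1: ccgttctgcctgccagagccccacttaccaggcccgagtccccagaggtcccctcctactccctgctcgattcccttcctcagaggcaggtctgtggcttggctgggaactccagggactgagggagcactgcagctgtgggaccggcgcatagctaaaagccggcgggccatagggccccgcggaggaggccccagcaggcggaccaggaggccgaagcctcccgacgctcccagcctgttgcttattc
LOXL4: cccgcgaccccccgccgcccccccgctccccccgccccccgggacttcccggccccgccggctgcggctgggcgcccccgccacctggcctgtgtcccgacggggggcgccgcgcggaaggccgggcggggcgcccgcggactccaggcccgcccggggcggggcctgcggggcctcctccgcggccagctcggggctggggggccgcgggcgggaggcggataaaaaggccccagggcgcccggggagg
This LOX window, the first of 3 listed for the gene, held ACGTG 4 times, and the LOXL1 and LOXL4 windows did not hold it. ACGTG occurred at least once in 18.5% of the 35116 windows of this length and at least 4 times in 0.669% of them. The 3 windows shown held none of the other motifs searched on both strands. These were TGANTCA, the AP-1 motif, found in 6.57% of all windows. The TEAD motif GGAATG was in 11.9% of them. TATAAA, the core of the promoter box bound by TBP, was in 10.7%. The first of the 2 LOXL3 windows held GGAATG 2 times and none of the other 3 motifs. GC content was 55.2% for LOX, 66.8% for LOXL1 and 86.4% for LOXL4, against a median of 58.0% over all windows. A match is a run of letters and not a measured binding site.

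LOX, the founding member, was measured at 4.68, 4.86 and 5.25 TPM in Control. A2ko had 4.33 TPM, A8ko 5.47, and the C9ko libraries 9.55 and 10.02. Both C9ko libraries lay clear of every other library, while A2ko was just below and A8ko just above the Control range. On the log2(TPM + 1) scale, which is used for all differences below and understates those of weakly expressed genes, C9ko was higher than Control by 0.86 ± 0.09 (SE of the limma fit). The A2ko and A8ko differences were -0.15 and 0.13. The gene overlaps SRFBP1 on the other strand, and whether the authors' counting used strand is not given in the sources used here. SRFBP1 was at 9.21 ± 1.54 TPM (SD, n = 3) in Control and at 9.59 and 11.5 TPM in C9ko, and it was not called in C9ko (limma adjusted p = 0.385).

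LOXL1, which is known for its part in elastic fibre upkeep, was weakly expressed. It was at 1.17, 0.972 and 1.06 TPM in the 3 Controls, 3.78 in A2ko, 0.212 in A8ko, and 0.628 and 0.659 TPM in C9ko. The order of groups was A8ko, C9ko, Control and A2ko, with no overlap between neighbouring groups. The log2 differences from Control were 1.21 in A2ko, -0.77 in A8ko and -0.33 ± 0.14 in C9ko. LOXL1-AS1, a noncoding gene on the other strand that overlaps the start of LOXL1, stood on the same sides of Control. It was at 5.69, 4.88 and 5.17 TPM in the 3 Controls, 14.4 in A2ko, 2.12 in A8ko, and 2.57 and 2.44 TPM in C9ko. Its log2 difference in C9ko was -0.83 ± 0.10 (limma adjusted p = 0.00132). Without knowledge of strand use, reads of LOXL1 and LOXL1-AS1 cannot be told apart where they overlap.

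LOXL2 (ENSG00000134013, chr8:23297189-23425328, minus strand), an oxidase of collagen IV in basement membranes, was at 23.1, 21.3 and 24.3 TPM in the 3 Controls, 37.7 in A2ko, 50.6 in A8ko, and 48.1 and 48.6 TPM in C9ko. Every knockout library exceeded every Control library. A8ko lay above both C9ko libraries by less than the range of the Control libraries, and A2ko lay between them and Control. The log2 differences were 0.70 in A2ko, 1.11 in A8ko and 1.05 ± 0.07 in C9ko. ENTPD4, a nucleotide hydrolase gene that overlaps LOXL2 on the same strand, was at 14.7 ± 1.02 TPM (SD, n = 3) in Control, 24.1 in A2ko, 20.5 in A8ko, and 16.8 and 16.9 TPM in C9ko. ENTPD4 was not called in C9ko (limma adjusted p = 0.115), and LOXL2-AS1 on the other strand did not exceed 0.0849 TPM in any library.

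LOXL3, a weakly expressed relative of LOXL2, was at 0.901, 0.995 and 1.19 TPM in the 3 Controls, 1.36 in A2ko, 2.10 in A8ko, and 2.31 and 2.03 TPM in C9ko. A8ko lay between the C9ko libraries, and A2ko was the knockout nearest to Control. The log2 differences were 0.22 in A2ko, 0.61 in A8ko and 0.65 ± 0.14 in C9ko. The genes that overlap LOXL3 on the other strand, HTRA2 and DOK1, were not called in C9ko (limma adjusted p = 0.626 and 0.109).

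LOXL4, the member with the highest mean TPM in Control, was at 25.8, 24.4 and 25.95 TPM there. A2ko had 156.3 TPM, A8ko had 1.35, and the C9ko libraries had 4.62 and 5.41. No pair of groups overlapped, and the order was A8ko, C9ko, Control and A2ko. The log2 differences were 2.58 in A2ko, -3.49 in A8ko and -2.13 ± 0.09 in C9ko. Between A2ko and A8ko the TPM differed by 116-fold. ENSG00000230928, an antisense transcript within LOXL4 with no gene symbol in the table used, was at 0.919 ± 0.310 TPM (SD, n = 3) in Control, 4.92 in A2ko, 0.0639 in A8ko, and 0.0531 and 0.145 TPM in C9ko. It thus stood on the same sides of Control as LOXL4.

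**Figure D2:**
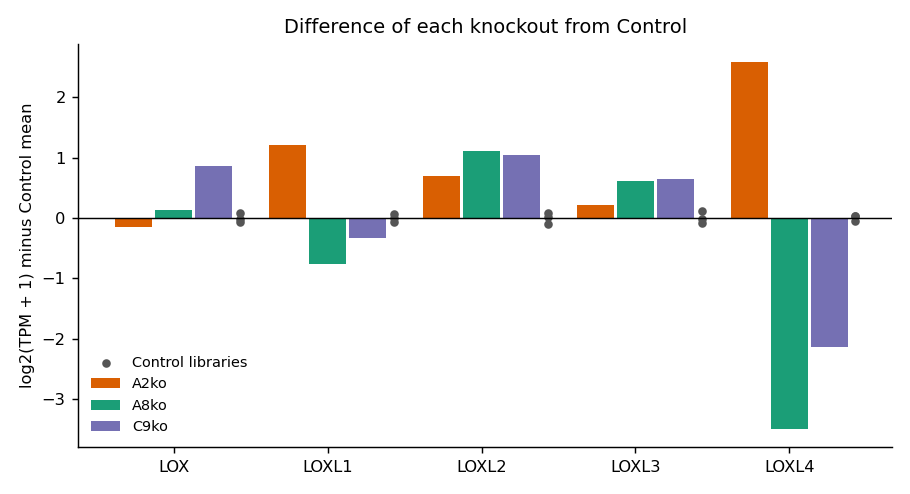
Difference of each knockout group mean from the Control mean on the log2(TPM + 1) scale for the 5 genes, as bars, with the Control libraries as points around 0. The largest differences are those of LOXL4, 2.58 in A2ko and -3.49 in A8ko.

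Because the genes share a substrate and a chemistry, their TPM were also added. The sum was 55.3 ± 2.62 TPM (SD, n = 3) in Control, 203.5 in A2ko, 59.7 in A8ko, and 65.2 and 66.7 TPM in C9ko. A2ko thus had 3.68-fold the Control sum, while A8ko had 1.08-fold and C9ko 1.19-fold. Within that sum the main gene differed by group. In Control, LOXL4 made up 45.9% ± 0.812 and LOXL2 41.4% ± 0.730 (SD, n = 3). In A2ko, LOXL4 made up 76.8% and LOXL2 18.5%. In A8ko, LOXL2 made up 84.7% and LOXL4 2.26%. In the C9ko libraries LOXL2 made up 73.8% and 72.9%, LOX 14.7% and 15%, and LOXL4 7.08% and 8.11%. LOX was 8.93% ± 0.452 of the sum in Control and 2.13% in A2ko. LOXL1 and LOXL3 together with LOX were the minor part in every library. Without LOXL4, the sum was 29.9 ± 1.81 TPM in Control, 47.2 in A2ko, 58.3 in A8ko, and 60.6 and 61.3 TPM in C9ko.

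**Figure D3:**
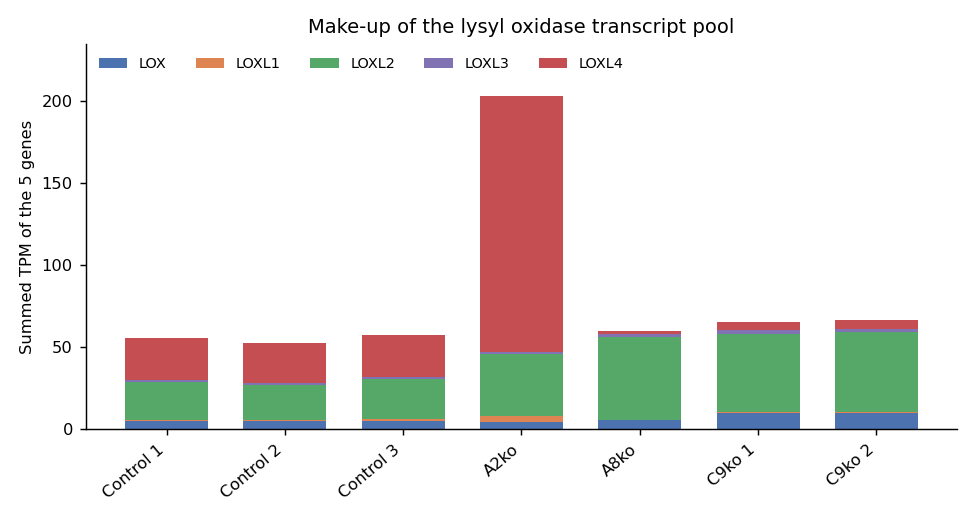
Summed TPM of the 5 genes in each distinct library, stacked by gene, from 0. A2ko reaches 203.5 TPM, mostly LOXL4, and LOXL2 is the largest segment in A8ko and C9ko.

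Each gene was next read against all genes. A gene was tested where it reached 1 TPM in at least 2 distinct libraries, which 17100 genes did, all 5 lysyl oxidases included. In the C9ko fit, a gene was called at an adjusted p-value of 0.05 (limma, Benjamini-Hochberg over all tested genes). The called genes included LOX, LOXL2 and LOXL3, higher, and LOXL4, lower, which is no test of them, since they were selected on these values. Over all tested genes 29.5% were called, 22.0% higher (3770 genes) and 7.42% lower (1268 genes). That split moved with the scaling, to 2626 higher and 2187 lower with median-of-ratios scaling and to 2899 and 1878 without mitochondrial transcripts. LOXL3 was not among the called genes without C9ko replicate 1, and LOXL1 was among them when every file was counted as a library or when eBayes was run without a trend.

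With the mean of each knockout group taken as 1 value, so that the spread between knockouts counted as error, the log2 difference of LOXL2 was 0.95 ± 0.13 and that of LOXL4, which lay on both sides of Control, -1.02 ± 1.39. Of all tested genes 1.03% were called, 0.509% higher (87 genes) and 0.52% lower (89 genes), and with median-of-ratios scaling 42 were higher and 98 lower. LOXL2 was among the called genes, again with no test of it implied. It was not among them with any 1 Control library, A8ko or C9ko left out, where its difference was 0.87 to 0.99, or with no filter on low values. Without A2ko, LOXL2, LOXL3 and LOXL4 were among the called genes, and with the knockouts averaged in the joint fit LOX was as well.

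In A2ko, 4 of the 5 genes were above every Control library (all genes: 50.4%) and LOX was below (26.3%). LOXL1 and LOXL4 were also at least 1 log2 unit higher, against 3.54% of all tested genes, and no lysyl oxidase was lower by as much (1.53%, or 5.07% for both directions). In A8ko, LOX, LOXL2 and LOXL3 were above every Control library (46.9%) and LOXL1 and LOXL4 below (26.4%), with LOXL2 higher by at least 1 log2 unit (2.05%) and LOXL4 lower by as much (2.68%, or 4.73% for both directions). Both C9ko libraries stood on the same sides as A8ko for all 5 genes (above 41.1%, below 16.4%). At least 1 log2 unit away in C9ko were LOXL2, higher (3.33%), and LOXL4, lower (1.78%, or 5.11% for both directions). LOXL1 and LOXL4 were above Control in A2ko and below it in both other knockouts, as were 4.95% of all tested genes. LOXL4 also passed 1 log2 unit each time, which 25 genes did (0.146%). LOXL2 and LOXL3 were above every Control library in every knockout library, as were 17.0% of all tested genes, and no lysyl oxidase was below throughout (4.61%). The 3 knockouts are read against the same Control libraries, so these sides are not independent of each other.

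Among the 5 genes, the 2 pairs with the most similar profiles over the 7 libraries were LOXL2 with LOXL3 (Pearson r = 0.953) and LOXL1 with LOXL4 (r = 0.952). LOX was nearest to LOXL3 (r = 0.766), and LOXL3 and LOXL4 were the most opposed (r = -0.702). These are descriptions over points that share a library and its scaling. Among 10476 other tested genes with a symbol and a mean of at least 5 TPM, the profile most like LOX was that of SLC1A3, a glutamate transporter (r = 0.997), followed by CTSS (0.995) and CDCP1 (0.994). SLC1A3 was at 17.5, 18.3 and 20.0 TPM in the 3 Controls, 16.4 in A2ko, 21.9 in A8ko, and 64.6 and 65.4 TPM in C9ko. Most like LOXL2 were SLC2A6 (r = 0.998), SH3BP4 (0.996) and TNPO2 (0.995), and most like LOXL1 were TTC14 (0.996), FAHD2B (0.994) and ST6GALNAC4 (0.993). Most like LOXL4 were RDH10, a retinol dehydrogenase (r = 0.994), PLSCR4, a scramblase family member (0.993), and FNBP1 (0.993). PLSCR4 was at 8.09, 6.34 and 7.83 TPM in the 3 Controls, 22.4 in A2ko, 0.930 in A8ko, and 2.27 and 1.85 TPM in C9ko. FNBP1 had the same order with far smaller steps, at 11.3 to 11.5 TPM in Control, 13.0 in A2ko, 9.61 in A8ko, and 10.01 and 10.47 TPM in C9ko.

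The tested genes that start within 2 Mb of each lysyl oxidase were read beside it. For LOXL4, the 42 neighbours had median log2 differences of 0.15 in A2ko, 0.13 in A8ko and 0.09 in C9ko, against 0.12, 0.09 and 0.11 over all tested genes. No neighbour of LOXL4 in A8ko lay beyond -0.99 or 0.94, so LOXL4, at -3.49, stood far outside them. For LOXL1, the 48 neighbours had medians of 0.23 in A2ko, -0.31 in A8ko and 0.05 in C9ko. Of these neighbours, 17 were below the Control mean in A2ko, 38 in A8ko and 18 in C9ko. The share of all tested genes below it was not counted. For the 35 neighbours of LOXL2 the medians were -0.07, 0.10 and 0.11, and for the 50 of LOXL3 they were 0.11, 0.19 and 0.08. LOX had 10 neighbours, with medians of 0.06, -0.06 and -0.03. Within 1 Mb, the median for LOXL2 in A8ko was 0.39 (21 genes), for LOX in A2ko 0.24 (7 genes) and for LOXL1 in C9ko 0.16 (20 genes). Within 5 Mb, those for LOX were 0.21 in A2ko and 0.09 in A8ko. Scaling by the median of ratios brought the median of all tested genes to 0.00 in A2ko and A8ko and -0.01 in C9ko, and that of the LOXL1 neighbours in A8ko to -0.40. It also turned negative the A2ko medians for LOX and LOXL3 and the C9ko medians for LOXL1, LOXL3 and LOXL4, none of them beyond -0.074. Copy number was not measured, and its part in these differences was not tested.

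**Figure D4:**
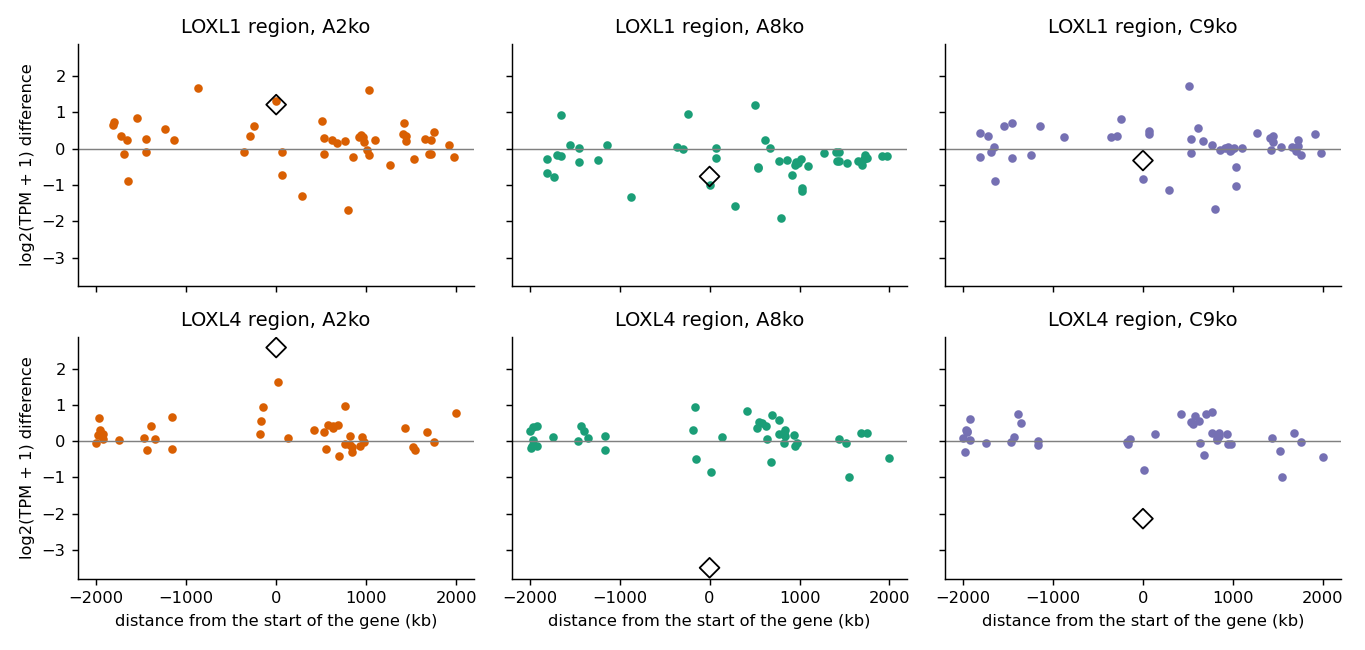
Log2(TPM + 1) difference from the Control mean (vertical axis) of tested genes within 2 Mb of LOXL1 (top) and LOXL4 (bottom), by distance from the gene's start in kb and by knockout, with the lysyl oxidase itself as an open diamond. LOXL4 lies outside its 42 neighbours in A8ko, and most neighbours of LOXL1 lie below 0 in that knockout.

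The genes on which lysyl oxidases act, and those that supply, mature or induce them, were read from 9 lists. The lists held 115 genes, of which 87 were tested. In C9ko, 54 of these were called higher and 5 lower, where 22.0% of all tested genes were called higher and 7.42% lower, with a median difference of 0.55 against 0.11 over all tested genes.

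Collagens and basement membrane substrates had 14 of 20 genes tested, of which 11 rose in C9ko and none fell (all tested genes: 22.0% and 7.42%). With no filter on low values, 7 were called. COL12A1, a collagen that associates with fibrils, was at 12.8 ± 0.784 TPM (SD, n = 3) in Control, 12.2 in A2ko, 23.7 in A8ko, and 30.4 and 32.4 TPM in C9ko (C9ko difference 1.23 ± 0.08, limma adjusted p = 0.000101). COL4A2, a basement membrane chain, was at 32.1 ± 1.45 TPM in Control, 29.2 in A2ko, 60.1 in A8ko, and 69.7 and 76.6 TPM in C9ko (1.16 ± 0.07, limma adjusted p = 9.35e-05). Its partner COL4A1, which it overlaps on the other strand, rose by 0.80 ± 0.07 (limma adjusted p = 0.00044). COL1A1, a chain of the main fibrillar collagen, was at 6.35 ± 0.499 TPM in Control, 13.4 in A2ko, 5.56 in A8ko, and 8.07 and 8.61 TPM in C9ko. It was called higher in C9ko (0.35 ± 0.09, limma adjusted p = 0.0323), but not without Control replicate 1, Control replicate 2 or either C9ko library (limma adjusted p = 0.0692, 0.0828, 0.0776 and 0.146). The collagen list's median difference was 0.57 in C9ko, 0.39 in A8ko and -0.07 in A2ko, where LOXL4 was at its highest. That A2ko median was below that of all genes but spans large differences both ways. Outside the Control range by at least 1 log2 unit in A2ko were 3 genes higher and 1 lower (all tested genes: 3.54% and 1.53%). Higher were COL6A1 (45.3 TPM against a Control mean of 7.26), COL6A2 (21.8 against 3.45) and COL5A1 (49.0 against 22.2). The lower gene was COL17A1 (36.2 against 118.3).

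Elastic fibre and microfibril genes, in a list that also held the matrix genes FN1, TNC and POSTN, had 10 of 18 tested. In C9ko 7 were called higher, FN1 and TNC among them, and 1 lower (LTBP4) (all tested genes: 22.0% and 7.42%). ELN, FBN1, FBN2, FBLN2, FBLN5, MFAP5, EMILIN1 and POSTN did not pass the filter and were not tested. At a mean of at least 5 TPM, 5 were called. ELN, which encodes elastin, did not exceed 0.425 TPM in any library and was listed at 0 in A2ko. FN1, which encodes fibronectin, was at 8.44 ± 0.586 TPM in Control, 4.08 in A2ko, 24.7 in A8ko, and 30.0 and 36.4 TPM in C9ko (1.85 ± 0.10, limma adjusted p = 6.47e-05). TNC, which encodes the matrix protein tenascin C, was at 96.4 ± 3.96 TPM in Control, 104.8 in A2ko, 184.2 in A8ko, and 292.9 and 300.9 TPM in C9ko (1.61 ± 0.06, limma adjusted p = 1.77e-05). LTBP2, a microfibril-associated protein gene, was at 3.01 ± 0.244 TPM in Control, 2.54 in A2ko, 5.58 in A8ko, and 7.57 and 7.69 TPM in C9ko (1.11 ± 0.10, limma adjusted p = 0.000398).

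Lysine and proline hydroxylation and collagen folding had 12 of 16 genes tested, of which 11 rose in C9ko and none fell (all tested genes: 22.0% and 7.42%), with a median of 0.76. PLOD2, a lysyl hydroxylase that sets the type of collagen crosslink, was at 51.5 ± 2.84 TPM in Control, 76.8 in A2ko, 97.2 in A8ko, and 101.0 and 111.1 TPM in C9ko. It rose by 1.03 ± 0.08 in C9ko (limma adjusted p = 0.000164) and by 0.83 ± 0.13 over all knockouts (limma adjusted p = 0.0451). P4HA2, a prolyl hydroxylase subunit, was at 21.8 ± 1.07 TPM in Control, 31.4 in A2ko, 51.0 in A8ko, and 51.3 and 52.5 TPM in C9ko (1.22 ± 0.07, limma adjusted p = 6.14e-05). P3H2 rose by 1.28 ± 0.07 and PLOD3 by 1.003 ± 0.07 in C9ko (limma adjusted p = 4.03e-05 and 0.000107). P3H2 was at 38.0 TPM in A8ko, below the 46.3 ± 2.26 TPM of Control, and at 79.3 in A2ko. SERPINH1, the collagen chaperone HSP47, rose by 0.65 ± 0.10 in C9ko (limma adjusted p = 0.00354).

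Propeptide processing had 6 of 9 genes tested and 1 called higher in C9ko (all tested genes: 22.0%), which was lost without Control replicate 2 or either C9ko library. BMP1, the protease that matures LOX and LOXL1, was at 22.4 ± 0.722 TPM in Control, 24.7 in A2ko, 20.0 in A8ko, and 21.8 and 23.3 TPM in C9ko (0.01 ± 0.07, limma adjusted p = 0.939). Copper supply had all 10 genes tested, with 5 called higher and 1 lower (CCS, the chaperone for superoxide dismutase) in C9ko (all tested genes: 22.0% and 7.42%), and a median of 0.19. In place of 6 calls, 3 were made without Control replicate 1 or 3, or without C9ko replicate 2, and 2 with no filter. ATP7A, the pump that loads copper into secreted enzymes, was at 2.55 ± 0.383 TPM in Control, 2.93 in A2ko, 2.69 in A8ko, and 1.70 and 1.85 TPM in C9ko (-0.35 ± 0.14, limma adjusted p = 0.0964). SLC31A2, a copper transporter relative, was at 32.6 TPM in C9ko replicate 1 and 9.57 in replicate 2, against 5.90 ± 0.843 in Control (1.46 ± 0.43, limma adjusted p = 0.0442). That call was lost without any 1 Control library (limma adjusted p = 0.09 to 0.11). Among other amine oxidases and crosslinkers 2 of the 4 tested genes rose (all tested genes: 22.0%), and 1 was called without C9ko replicate 2. TGM2, a transglutaminase, was at 5.54 ± 0.372 TPM in Control, 6.70 in A2ko, 18.2 in A8ko, and 23.9 and 26.2 TPM in C9ko (1.99 ± 0.09, limma adjusted p = 2.58e-05).

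**Figure D5:**
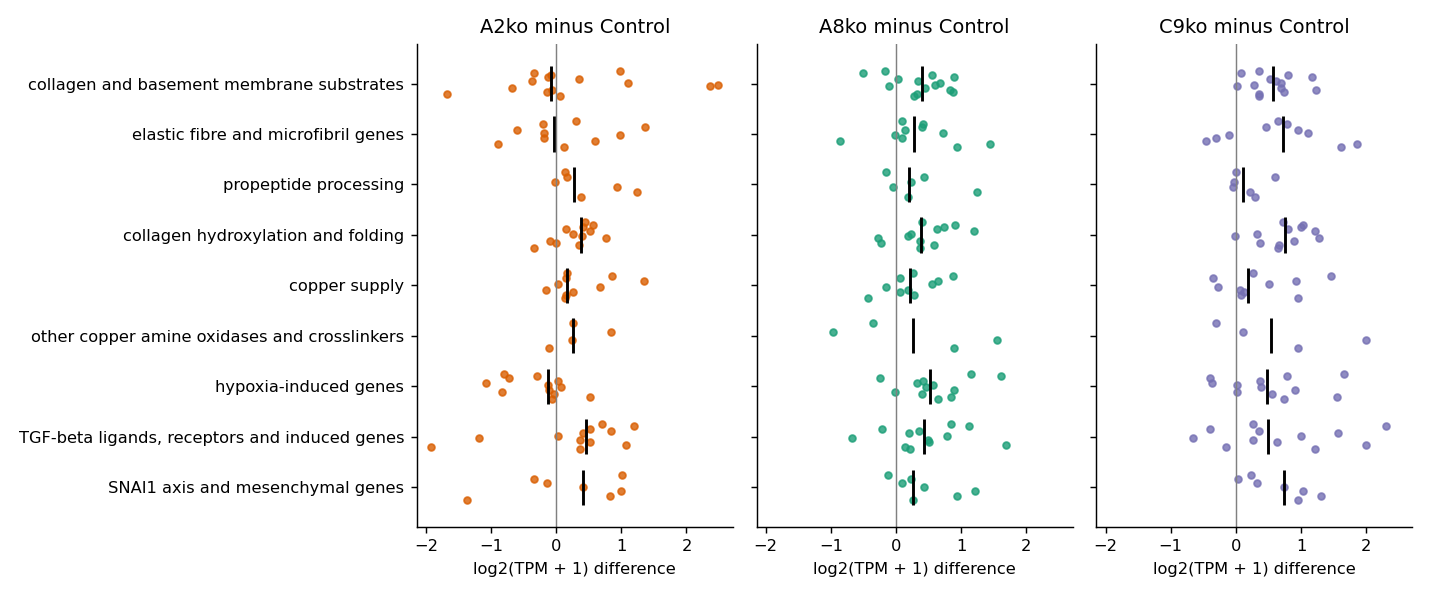
Log2(TPM + 1) difference from the Control mean of the tested genes of each list, by knockout, with each gene as a point and the list median as a black line. The C9ko medians run from 0.11 for propeptide processing to 0.76 for collagen hydroxylation and folding, against 0.11 over all tested genes.

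Known inducers and partners of the family were read in the same way. All 12 hypoxia-induced genes were tested, with 6 called higher and 2 lower (ADM and NDRG1) in C9ko (all tested genes: 22.0% and 7.42%). The list's median was 0.47 in C9ko, 0.51 in A8ko and -0.12 in A2ko. CA9, a carbonic anhydrase and standard hypoxia marker, was at 18.2 ± 1.34 TPM in Control, 9.99 in A2ko, 41.8 in A8ko, and 58.2 and 60.6 TPM in C9ko (1.65 ± 0.08, limma adjusted p = 3.48e-05). LOX was at 5.47 TPM in A8ko, and the part of hypoxia signalling in its levels was not tested. ANGPTL4, a secreted lipase inhibitor, rose by 1.55 ± 0.17 in C9ko (limma adjusted p = 0.000818). Unlike CA9 it was above Control in A2ko, at 2.32 TPM against 1.34 ± 0.367. ANKRD37, EGLN3, PDK1 and SLC2A1 were not called in C9ko, and ADM was below every Control library in each knockout.

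All 12 genes of the TGF-beta list were tested, with 7 called higher and 1 lower (TGFBI) in C9ko (all tested genes: 22.0% and 7.42%). TGFB2, a ligand, was at 6.14 ± 0.564 TPM in Control, 15.3 in A2ko, 14.5 in A8ko, and 33.1 and 35.3 TPM in C9ko (2.31 ± 0.09, limma adjusted p = 1.84e-05). PMEPA1, a target and feedback inhibitor of the pathway, was at 4.72 ± 0.141 TPM in Control, 11.1 in A2ko, 17.4 in A8ko, and 21.5 and 22.1 TPM in C9ko. It rose by 2.00 ± 0.07 in C9ko (limma adjusted p = 1.63e-05) and by 1.59 ± 0.23 over all knockouts (limma adjusted p = 0.035). TGFBR2, a receptor, rose by 1.56 ± 0.07 and ITGB6, an integrin subunit that activates the latent ligand, by 1.22 ± 0.08 in C9ko (limma adjusted p = 2.58e-05 and 0.000103).

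The list of SNAI1 and mesenchymal genes had 7 of 10 tested, with 4 called higher in C9ko (all tested genes: 22.0%). These were CDH1, CDH2, SPARC and THBS1, of which CDH1 is also among the squamous epithelial markers above. CDH1 rose by 0.74 ± 0.06 in C9ko (limma adjusted p = 0.000249). THBS1 was at 138.1 TPM in A2ko, below the 356.7 ± 10.3 TPM of Control. ZEB1, ZEB2 and VIM did not pass the filter and were not tested. VIM reached 1 TPM only in A8ko, at 3.12 TPM against 0.130 ± 0.082 (SD, n = 3) in Control. It was at 0.118 TPM in A2ko and at 0.388 and 0.539 TPM in C9ko. SNAI1, a transcription factor that LOXL2 is known to bind, was at 1.58 ± 0.497 TPM in Control, 4.11 in A2ko, 1.34 in A8ko, and 1.79 and 2.20 TPM in C9ko (0.23 ± 0.19, limma adjusted p = 0.388). Its relative SNAI2 was at 82.5 ± 3.96 TPM in Control, 65.0 in A2ko, 96.7 in A8ko, and 82.9 and 85.3 TPM in C9ko (0.03 ± 0.07, limma adjusted p = 0.776). SPARC, a collagen-binding matrix protein gene, was at 209.8 ± 5.86 TPM in Control, 373.9 in A2ko, 400.3 in A8ko, and 507.3 and 528.0 TPM in C9ko. CDH2, which encodes N-cadherin, was at 6.15 ± 0.720 TPM in Control, 13.2 in A2ko, 15.5 in A8ko, and 13.6 in each C9ko library. Over all knockouts SPARC rose by 1.02 ± 0.13 and CDH2 by 1.08 ± 0.13 (limma adjusted p = 0.0276 and 0.0228). PLOD2, PMEPA1, SPARC and CDH2 were the 4 list genes called over all knockouts, and none of them was called there without Control replicate 1, 2 or 3 (limma adjusted p = 0.132 to 0.264). Without A8ko, PLOD2, PMEPA1 and SPARC were no longer called, and without C9ko, PLOD2, PMEPA1 and CDH2 were not.

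Several matrix genes and lysyl oxidases are fibroblast or vessel genes in tissue, so markers of other cell types were summed. Of 8 fibroblast markers 3 reached 1 TPM in any library and COL3A1 was listed at 0 throughout, with sums of 10.8 to 12.3 TPM in Control, 17.7 in A2ko, 7.43 in A8ko, and 11.1 and 11.9 TPM in C9ko. Of 4 endothelial markers only CDH5 reached 1 TPM and KDR was listed at 0 throughout, with sums of 3.51 to 4.55 TPM in Control, 12.8 in A2ko, 8.63 in A8ko, and 22.2 and 30.1 TPM in C9ko. Of 4 leukocyte markers only CD68 reached 1 TPM and MS4A1 was listed at 0 throughout, with sums of 28.1 to 32.5 TPM in Control, 36.1 in A2ko, 66.6 in A8ko, and 14.3 and 14.5 TPM in C9ko. Smooth muscle markers summed to at most 1.83 TPM, with DES listed at 0 throughout. Within these sums single markers differed: in C9ko COL1A1 was at 8.07 and 8.61 TPM against 6.35 ± 0.499 (SD, n = 3) in Control, LUM at 0.773 and 0.679 against 2.74 ± 0.234, and CDH5 at 21.9 and 29.9 against 3.70 ± 0.534. The part of other cell types in the differences above was not tested.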

How the data were processed

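RNA of CAL27 cells was measured in 9 samples of 4 groups, taken from the sample titles. Per the labels' protocols, RNA was extracted with TRIzol, and polyA libraries were made by a dUTP method, which marks strand. The authors deposited TPM values per Ensembl gene; the build was hg38 per the submitters' processing notes. The aligner, the quantification tool, the annotation release and whether counting used strand are not given in the sources used here. The labels name no batch and do not say whether replicates were separate cultures, so p-values measure only the spread between these libraries, which may be technical.

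The identical A2ko files and the identical A8ko files were each counted as 1 library. An identifier table gave symbols (42165 of 78894 identifiers had one), positions from GENCODE 29 (57342 of 78894) and promoter windows from RefSeq. Values were analysed as log2(TPM + 1), for the 17100 genes that reached 1 TPM in 2 or more distinct libraries. limma 3.58.1 in R 4.3.3 (lmFit, eBayes with trend, tested on simulated data) fitted all 4 groups for C9ko against Control, and the 3 Control libraries against the 3 knockout group means for all knockouts, with p-values adjusted by Benjamini-Hochberg over these 17100 genes. In A2ko and A8ko, a gene was counted where it lay outside the Control range and was 1 or more log2 units away from the Control mean.

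The 5 genes, the lists, the markers and the tests were chosen with earlier results of these data known. Named list genes were up to 4 per list called in C9ko with a difference of at least 1, up to 3 per list at least 1 log2 unit from Control on 1 side in every knockout, and a set named whatever their values (ELN, COL1A1, COL4A1, COL4A2, FN1, BMP1, PLOD2, SERPINH1, ATP7A, SNAI1, SNAI2, LOXL1-AS1 and genes overlapping a lysyl oxidase). Like genes were the 3 with the highest Pearson r. Some genes were named after their values were seen. These were COL5A1, COL6A1, COL6A2, COL17A1, LTBP4, CCS, ADM, NDRG1, ANKRD37, EGLN3, PDK1, SLC2A1, TGFBI, CDH1, THBS1, untested list genes and single cell type markers. Alternatives were another pseudocount, filter, scaling and fit, neighbour windows of 1 and 5 Mb, a replicate block and leaving out each library. Protein sequences were not analysed here.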

Additional observations from a re-analysis of the deposited data

Results flagged for a closer look

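Several genes lay outside the Control range on opposite sides in different knockouts. A2ko and A8ko are 1 library each, so these differences between knockouts were not tested. Each value is the log2(TPM + 1) gap between the highest and the lowest knockout group mean.

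LOXL1 (gap 1.98), LOXL4 (6.07) and LOXL1-AS1 (2.30) were above every Control library in A2ko and below every one in A8ko and C9ko. LOX had the opposite arrangement, below Control in A2ko and above it in A8ko and C9ko, with a gap of 1.02. The same arrangement as LOX was seen for the matrix genes COL12A1 (1.30), COL4A2 (1.29), COL4A1 (0.877), FN1 (2.75), LTBP2 (1.29) and ELN (0.491), for the collagen chaperone SERPINH1 (0.991) and for the hypoxia marker CA9 (2.46). The share of all tested genes with this arrangement was not counted. Taken 1 knockout at a time, 26.3% of all tested genes were below every Control library in A2ko. Above every Control library were 46.9% in A8ko and 41.1% in C9ko. Some margins were small. COL12A1 was at 12.19 TPM in A2ko against 12.28 in the lowest Control library, and COL4A1 at 13.18 against 13.36. LOX was at 5.47 TPM in A8ko against 5.25 in the highest Control library. ELN was under 1 TPM in every library. P3H2 (1.56) and COL1A1 (1.14) were above Control in A2ko and C9ko and below it in A8ko. BMP1 (0.291) was above Control in A2ko and below it in A8ko, and SNAI2 (0.565) was below Control in A2ko and above it in A8ko, each with C9ko within or across the Control range.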

How the results depend on the processing

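No difference of a lysyl oxidase between a single knockout group and Control changed sign under any alternative run. This does not cover the all-knockout differences. For LOX, LOXL1 and LOXL4 these average groups on both sides of Control, so their sign depends on which knockouts are included. For C9ko, 5038 genes were called, with 8166 when every file counted as a library and 3301 to 4174 with 1 library left out. Control and C9ko share replicate numbers, but their libraries did not deviate together (r = -0.05 and -0.01 over genes), and with the replicate block 3246 genes were called, 3 of them in the copper list and 0 in the propeptide list. Over all knockouts 176 genes were called, with 4361 where the knockouts were averaged in the joint fit of the groups, 1735 for that average with the replicate block, 23 with no filter, 1993 without A2ko and 67 without C9ko. Leaving out 1 Control library gave 5 to 11 (1528 to 1778 at an unadjusted p under 0.05). Genes outside the Control range numbered 867 in A2ko and 809 in A8ko, 1813 and 1689 at a pseudocount of 0.1, and 380 and 412 at a mean TPM of at least 5.

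Values of the lysyl oxidases moved by more than 1 SD of Control as follows, in log2 units. At a pseudocount of 0.1, LOX in C9ko was 0.98, LOXL1 was 1.74, -1.90 and -0.65 in A2ko, A8ko and C9ko, LOXL3 was 0.38, 0.97 and 1.02, and LOXL4 was -4.14 in A8ko and -2.32 in C9ko. At 0.5, LOXL1 was 1.45, -1.14 and -0.45, LOXL3 was 0.77 in A8ko and 0.81 in C9ko, and LOXL4 was -3.81 and -2.23. With scaling by the median of ratios, LOX was -0.26, 0.042 and 0.75, LOXL1 was 1.13 in A2ko, LOXL2 was 0.57, 1.01 and 0.92, and LOXL4 was 2.45, -3.57 and -2.25. Without mitochondrial transcripts, LOXL1 was 1.33, -0.93 and -0.42, LOXL2 was 0.96 in C9ko, and LOXL4 was -3.68 in A8ko and -2.27 in C9ko. LOXL4 in C9ko ran from -2.23 to -2.04 with 1 library left out. The cause of these changes was not tested, beyond the pseudocount's larger weight on LOXL1 and LOXL3, which are near 1 TPM. In C9ko, 59 list genes were called, and the number called under the alternatives was 46 to 68. TPM limits precision here, since depth is unknown. The planned comparison of protein sequences was not run.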
